A study of Mus musculus with 6 samples.

Results

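The genes described here encode 9 adhesion receptors of myeloid and progenitor cells: the β2 integrin subunits Itgam (CD11b), Itgax (CD11c), Itgal (CD11a) and Itgb2 (CD18), the VLA-4 subunits Itga4 and Itgb1, the selectin ligand Selplg (PSGL-1), the hyaluronan receptor Cd44 and the sialomucin Cd34. They were chosen by name. Overlapping 5hmC peaks of the 4 libraries were merged into regions. A region belonged to a gene when it overlapped the gene's RefSeq span or the 5 kb on either side of it. This gave 35 regions at these 9 genes, out of 174070 regions in all and 21887 protein-coding genes. No region was shared between 2 of the 9 genes.

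The mark 5hmC was mapped by antibody enrichment of DNA fragments and sequencing, in sorted cells of bone marrow cultures from C57BL/6 mice. All cultures came from Kit-enriched cells of Tet2fl/fl;CreER mice, and all carried the vector MigR1-AE-IRES-GFP, which expresses the leukaemia fusion protein AML1-ETO with GFP. The flox group (2 libraries, genotype label Tet2fl/fl) received ethanol, and the KO group (2 libraries, Tet2-/-) received 200 nM 4-OHT (4-hydroxytamoxifen) for 2 passages over 4 days, which activates CreER to excise Tet2, an enzyme that makes 5hmC. Only the KO group was given 4-OHT, so effects of the drug, of active Cre and of Tet2 loss cannot be told apart. Both groups were taken at passage 5 and sorted as GFP+, CD11b-, Gr1-, CD16/32+ cells. The sort removed cells with the Itgam product CD11b on their surface, so the Itgam locus is described here in cells selected to lack that protein. How many mice or separate cultures stand behind the replicates is not stated, so all tests measure the spread between these libraries, which may be technical.

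Integrins are pairs of an α and a β subunit that switch between a bent, resting and an extended, binding state. The β2 integrins bind ICAMs and complement fragments and carry leukocytes through vessel walls, and people without functional CD18 have leukocyte adhesion deficiency. VLA-4 binds VCAM-1 and fibronectin and holds progenitors in the marrow, where PSGL-1 and CD44 also take part in rolling and homing and CD34 marks immature cells. In gene bodies and at enhancers 5hmC is known as a mark made by TET enzymes from 5-methylcytosine.

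The lists held 116539 to 122101 peaks per library, and the number of reads behind them was unknown. Each list belongs to 1 library, what its peaks were called against is not stated, and a shift in 5hmC over the whole genome need not show in them. No RNA or protein was measured in these files, so markers of the sorted cell type could not be checked.

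Promoter windows (250 bases before to 50 after the start, RefSeq, GRCm38.p6) were held for 6 of the 9 genes, with 1 window each, and starts of Itgal, Itgb2 and Selplg were not analysed here. Of the 6 windows, those of Itgam and Cd44 held called bases in every library, and their sequences are shown beside that of Itgb1, which is rich in CpG and held none. Each is printed 5′ to 3′ along the gene, with every CG, the dinucleotide on which most 5hmC sits, in capitals. The windows are chr7:128062390-128062689 (plus strand) for Itgam, chr2:102901616-102901915 (minus strand) for Cd44 and chr8:128685404-128685703 (plus strand) for Itgb1.
Itgam: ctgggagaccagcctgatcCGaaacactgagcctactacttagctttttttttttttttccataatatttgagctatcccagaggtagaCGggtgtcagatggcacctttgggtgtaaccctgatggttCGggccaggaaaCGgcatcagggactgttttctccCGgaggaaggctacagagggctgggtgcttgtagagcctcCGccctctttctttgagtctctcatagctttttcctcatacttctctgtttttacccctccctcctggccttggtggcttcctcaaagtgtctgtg
Cd44: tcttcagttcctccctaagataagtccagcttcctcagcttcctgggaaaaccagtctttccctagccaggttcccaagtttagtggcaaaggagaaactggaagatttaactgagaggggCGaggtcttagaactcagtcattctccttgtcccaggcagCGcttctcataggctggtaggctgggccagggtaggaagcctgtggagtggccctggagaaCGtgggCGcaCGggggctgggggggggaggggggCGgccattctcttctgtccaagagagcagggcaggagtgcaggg
Itgb1: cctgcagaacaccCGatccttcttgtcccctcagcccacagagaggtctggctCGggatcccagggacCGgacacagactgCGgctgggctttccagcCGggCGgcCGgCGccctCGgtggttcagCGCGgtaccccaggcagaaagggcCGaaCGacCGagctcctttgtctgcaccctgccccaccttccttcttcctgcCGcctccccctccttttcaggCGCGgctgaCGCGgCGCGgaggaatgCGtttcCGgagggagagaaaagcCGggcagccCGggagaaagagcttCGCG

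The whole Cd44 window lay under peaks in all 4 libraries (300 of 300 bases in each). At Itgam the peaks reached into the window by 46 bases in flox 1, 177 in flox 2, 202 in KO 1 and 53 in KO 2, from the side of the gene body. The flox 1 peak stayed within the 50 bases after the start, so it lay beside the start base and not over it. The windows of Itgb1, Itga4, Itgax and Cd34 held no called base in any library. Of all 32841 windows, 5.19% held at least 1 called base in each of the 4 libraries. The Itgam and Cd44 windows each held 6 CGs, below the median of 7 over all windows, while Itgb1 held 27, a number reached by 15.5% of windows. Itga4 held 10, Cd34 held 7 and Itgax held 5. Across all windows the median was 11 CGs in those with called bases in all 4 libraries and 7 in those with none in any library. The core motif of RUNX proteins, to which the AML1 part of the fusion belongs (TGTGGT or ACCACA, either strand), was found in the windows of Itga4 and Itgax, 2 of 6, and in 16.8% of all windows. The core of the myeloid factor PU.1 (GAGGAA or TTCCTC) was found in Itgam, Cd44 and Itgb1, 3 of 6, against 28.3% of all windows.

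Most peaks at the 9 genes recurred from library to library. Of the 35 regions, 19 (54.3%) were called in all 4 libraries, against 40.5% of the 81689 regions at protein-coding genes. A further 5 were called in 3 libraries, 5 in 2 and 6 in 1, the last against a background of 27.2%. Regions called in both libraries of 1 group and in neither of the other numbered 2 for flox (flox-only) and 2 for KO (KO-only), against 3.21% and 2.74% of regions at genes. By library, 29 and 26 of the 35 regions were called in flox 1 and 2, and 27 and 25 in KO 1 and 2. Any peak within a merged region counts as a call here. This includes the peaks of flox 1 and KO 2 before Itgam that ended outside the 5 kb. A stricter setting counted a call only where peaks covered at least as much of a region as they left uncovered. Then 14 of the 35 were called in all 4 libraries, and the share over all regions was not computed. Inside the gene spans lay 23 regions, 3 crossed an end of the span and 9 lay in the flanks. The gene table has no exons, so exons and introns were not told apart.

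**Figure D1:**
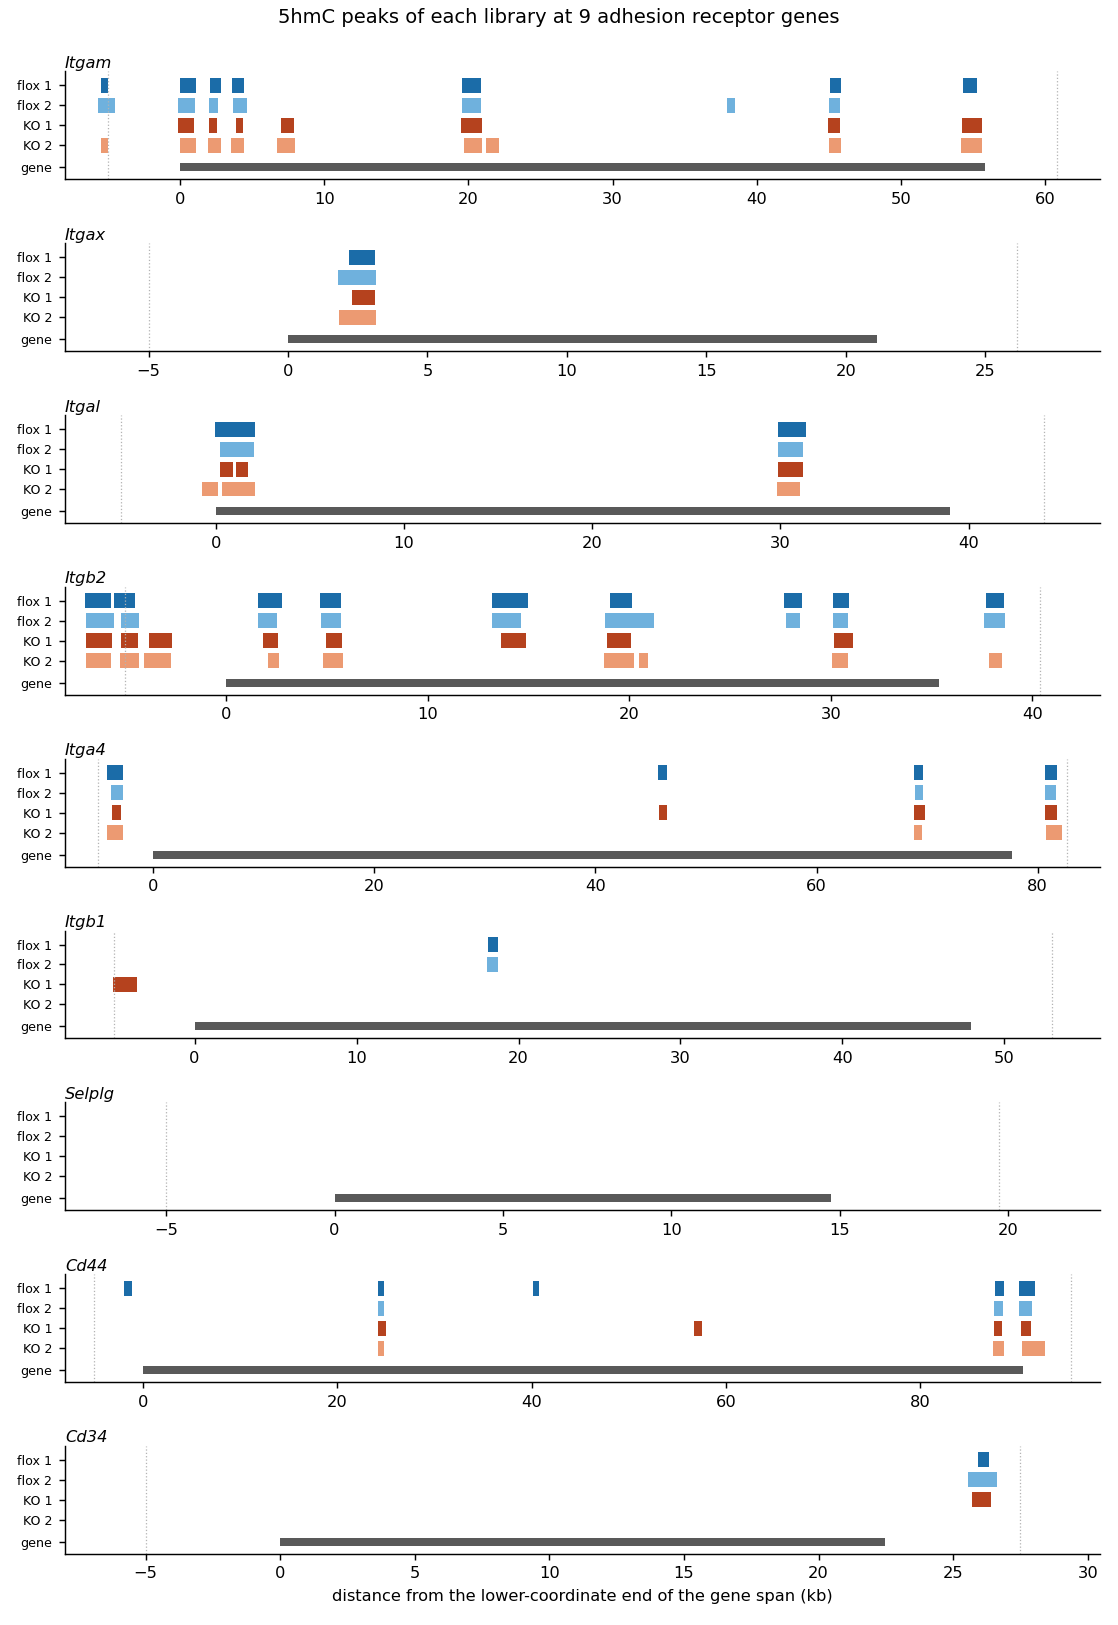
Peaks of the 4 libraries (coloured bars, 1 row per library) at each gene, by distance in kb from the lower-coordinate end of the gene span (grey bar); dotted lines mark 5 kb beyond each end. Itgam and Itgb2 hold 10 and 9 regions, Itgax and Cd34 hold 1 each, and the Selplg rows are empty.

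Itgam, the α subunit of the complement receptor Mac-1, held 10 regions (chromosome 7, 128062640 to 128118491). Its strongest lay 20.2 kb inside the gene (128082092 to 128083566), with 1304 and 1285 bp called in flox against 1475 and 1216 bp in KO. The authors' peak score there was 571.61 and 592.37 in flox against 411.08 and 582.33 in KO, within the top 1.08 to 3.18% of peaks of each library. This was the highest scored region of all 35. The merged region across the start (128062488 to 128063749) had 1106 and 1179 bp in flox against 1107 and 1092 bp in KO, with scores of 154.03, 270.78, 219.02 and 252.44. Behind it followed 2 weaker regions of all 4 libraries, centred 2.38 and 4.07 kb from the start, and another such region lay 45.4 kb inside.

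The KO-only region of Itgam was centred 7.33 kb from the start (128069319 to 128070621), with 916 bp in KO 1 and 1303 bp in KO 2 and scores of 52.78 and 65.65. The lowest score in any list is 50, so both peaks stood close to the limit of calling. Near the far end of the gene, the region at 128116791 to 128118269 had 949 bp in flox 1, none in flox 2, and 1367 and 1455 bp in KO 1 and 2. Of the 3 remaining regions, 1 was called in flox 2 alone (560 bp, score 54.01), 1 in KO 2 alone (885 bp, score 51.50), and 1 before the gene (128056947 to 128058133) in every library but KO 1. At this last region the peaks of flox 1 and KO 2 ended outside the 5 kb, and only that of flox 2 reached it.

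In sum Itgam had 5673 bp of called length in flox 1, 5938 bp in flox 2, 6763 bp in KO 1 and 8553 bp in KO 2. Both KO libraries lay above both flox libraries, with KO 2 the highest. The log2 difference of KO from flox was 0.38 (SE 0.18, limma adjusted p = 0.825), on the scale log2(called bp + 500), and Itgam did not pass the test. It was 0.22 without KO replicate 2, 0.12 when peaks scored under 100 were left out and 0.15 with the 50000 highest scored peaks per library.

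Itgb2 encodes CD18, the β subunit that Itgam, Itgax and Itgal all need to reach the cell surface. It held 9 regions (chromosome 10, 77530329 to 77565708), of which 5 were called in all 4 libraries. The widest of these (77523315 to 77526026) ended 4302 bp before the span and had 2338, 2318, 2155 and 2186 bp in flox 1, flox 2, KO 1 and KO 2, with the highest median score at the gene (178.755). Lengths of regions are given whole, while the called length of a gene counts only bases within 5 kb. The score of a region in a library is that of its best peak there. This widest region held 2 peaks in each library and began outside the 5 kb. Its score may therefore be that of a peak beyond the 5 kb. Only 232 bp further, and still outside the gene, lay the KO-only region (77526259 to 77527644), with 1159 bp in KO 1 and 1348 bp in KO 2 and scores of 93.73 and 58.52. When peaks within 500 bp were merged, these became 1 region called in every library.

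Inside Itgb2 lay 6 regions, and they did not all differ in the same direction. The flox-only region (77557999 to 77558913) covered 915 and 713 bp in flox 1 and 2, with scores of 61.82 and 50.33. The region at 77543518 to 77545288 had 1766, 1452 and 1262 bp in flox 1, flox 2 and KO 1 and none in KO 2. The region at 77549061 to 77551570 was called in all 4 libraries, and its lengths overlapped between the groups (1082 and 2469 bp in flox, 1181 and 1974 bp in KO). It had scores of 133.75 and 104.61 in flox against 71.84 and 86.31 in KO, so that it became flox-only when peaks with a score under 100 were left out. Its peaks stood within the top 28.9 and 42.4% of their lists in flox against 70.6 and 58.2% in KO. With the 50000 highest scored peaks per library it was not flox-only. The other 3 regions were also called in every library. At 77560395 to 77561414 the longest call and the highest score were those of KO 1 (802, 749, 905 and 771 bp in flox 1, flox 2, KO 1 and KO 2, with scores of 80.70, 84.84, 111.81 and 67.24). At 77534963 to 77536121 the lengths were 1083, 1002, 783 and 1011 bp in the same order, with the highest score in KO 2 (82.95). At 77531896 to 77533103 they were 1208, 914, 716 and 569 bp, with both KO values under both flox values.

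Called length over Itgb2 was 8222 bp in flox 1, 9036 bp in flox 2, 6607 bp in KO 1 and 6990 bp in KO 2. Here both KO values were under both flox values, the reverse of Itgam. The log2 difference was -0.31 (SE 0.15, limma adjusted p = 0.825), and Itgb2 did not pass. It was -0.56 over the gene body alone, -0.67 with the 50000 highest scored peaks and -1.17 with peaks of a score of at least 100 (limma adjusted p = 0.766, 0.767 and 0.825).

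Itgax, the α subunit of the complement receptor of dendritic cells and macrophages, lies next to Itgam and had a single region. It was centred 2.49 kb inside the gene (chromosome 7, 128131330 to 128132695) and called in every library, with 923 bp in flox 1, 1336 bp in flox 2, 824 bp in KO 1 and 1357 bp in KO 2. The groups overlapped (log2 difference -0.04, SE 0.33, limma adjusted p = 0.994). The score in the same order was 94.14, 72.85, 102.46 and 57.54.

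Itgal encodes the α subunit of LFA-1, the receptor for ICAM-1 on lymphocytes and other leukocytes. It had 2 regions, both called in all libraries. The first crossed the lower end of the span (chromosome 7, 127295396 to 127298249) with 2143, 1809, 1354 and 2571 bp in flox 1, flox 2, KO 1 and KO 2. It was a single peak in each flox library and 2 peaks in each KO library. The second (127325968 to 127327485) had 1488, 1336, 1299 and 1224 bp, with scores of 101.5, 91.62, 156.75 and 150.42, higher in both KO than in both flox libraries. In the same order, its peaks stood within the top 44.8, 51.8, 22.0 and 23.9% of their lists. With the 50000 highest scored peaks per library, this second region became KO-only. With peaks of a score of at least 100 it was not KO-only, since the flox 1 peak (101.5) was kept. Called length over the gene was 3631, 3145, 2653 and 3795 bp, and the groups overlapped (log2 difference -0.06, SE 0.24, limma adjusted p = 0.980). The sign turned when peaks scored under 100 were left out (0.79).

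Itga4, the α4 subunit of VLA-4, had 4 regions (chromosome 2, 79255426 to 79333114). Of these, 3 were called in every library: 1 before the gene, centred at -3.47 kb from the start (79251237 to 79252681), 1 inside and 1 beyond the far end. The lengths of the one before the gene overlapped between the groups (1445 and 1029 bp in flox, 840 and 1387 bp in KO). Its scores were 226.40 and 206.86 in flox against 90.32 and 149.93 in KO. By rank within each list its peak also stood higher in both flox than in both KO libraries. How many regions at genes differ so in score was not computed. The one beyond the end (79336107 to 79337613) lies in the neighbouring gene Cerkl, a ceramide kinase-like gene, and cannot be assigned to either. The fourth, inside the gene, was called in flox 1 and KO 1 (798 and 782 bp). Called length was 4129 bp in flox 1, 2717 bp in flox 2, 3609 bp in KO 1 and 3487 bp in KO 2, with both KO libraries between the flox libraries (log2 difference 0.08, SE 0.24, limma adjusted p = 0.972).

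Itgb1, the β1 subunit shared by VLA-4 and many other integrins, had little called 5hmC (chromosome 8, 128685654 to 128733579). Its flox-only region, 18.4 kb inside the gene (128703735 to 128704378), covered 631 and 644 bp in flox 1 and 2, with scores of 89.97 and 70.31. Its other region, before the gene (128680642 to 128682093), was called in KO 1 alone, with 1452 bp and a score of 117.65. KO 2 had no peak at Itgb1. Over the gene and its flanks this came to 631, 644, 1440 and 0 bp, so the KO libraries lay on both sides of the flox libraries (log2 difference -0.20, SE 0.79, limma adjusted p = 0.980). Without KO replicate 2 the difference was 0.78, and without KO replicate 1 it was -1.18. It was -0.90 with 100 bp in place of the 500 bp added before the log, and -0.0037 with 2000 bp, so its size is set largely by that offset.

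Cd44, a receptor for hyaluronan, had 6 regions (chromosome 2, 102811141 to 102901669). The region over its start (102901284 to 102903920) had 1673 and 1306 bp in flox against 1092 and 2360 bp in KO, with scores of 172.65, 126.68, 211.21 and 268.09. It had the highest median score at the gene (191.93). Another region of all libraries was centred 2.49 kb inside the gene and one more 65.9 kb inside. The other 3 regions were each called in 1 library, 2 in flox 1 and 1 in KO 1, with scores of 52.77 to 79.40. Called length was 4614, 2821, 3441 and 4142 bp, with both KO libraries between the flox libraries (log2 difference 0.07, SE 0.27, limma adjusted p = 0.980).

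Cd34, a sialomucin of stem and progenitor cells, had no peak inside the gene in any library (chromosome 1, 194938821 to 194961292). Its 1 region lay 3083 bp beyond the far end (194964376 to 194965452), overlapped the long non-coding RNA gene Gm16897 and had 405 bp in flox 1, 1077 bp in flox 2, 711 bp in KO 1 and none in KO 2. KO 1 lay between the flox libraries (log2 difference -0.61, SE 0.77, limma adjusted p = 0.918), and the difference was 0.029 without KO replicate 2 and -1.25 without KO replicate 1. With an offset of 100 bp it was -1.43, and with 2000 bp it was -0.22. Cd34 entered the test, which asks for a mean of at least 500 bp, through the flox group (means of 741 bp in flox and 355.5 bp in KO).

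Selplg, which encodes the ligand of all 3 selectins, had no peak in any library in its span (chromosome 5, 113817798 to 113832528) or flanks, as was the case for 22.9% of protein-coding genes. The nearest region below lay 6695 bp away (113809579 to 113811102), called in all libraries with 1443 to 1524 bp. The nearest above lay 9711 bp away in Coro1c, a gene of an actin-binding protein, and was called in every library but KO 1. A list of peaks above a minimum does not show that 5hmC is absent between them.

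**Figure D2:**
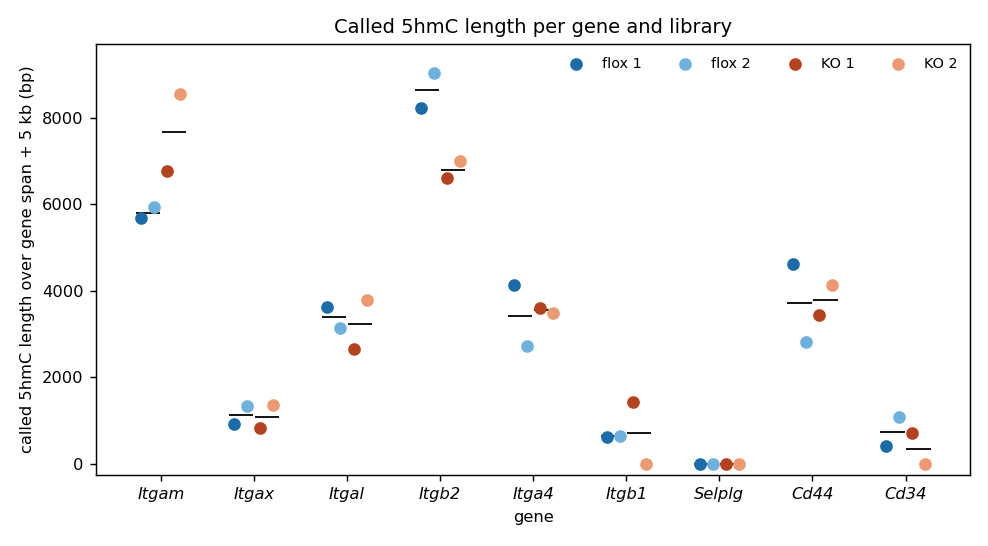
Called 5hmC length in bp over each gene span with 5 kb at both ends; points are libraries and black lines the mean of the 2 libraries of a group. At Itgam both KO points (6763 and 8553 bp) lie above both flox points, at Itgb2 both (6607 and 6990 bp) lie below, and elsewhere the groups overlap or are at 0.

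Because the genes differ in length, levels between them were compared as the share of the gene interval under peaks, averaged over the 4 libraries. Itgb2 stood highest at 17.0% (14.6 to 19.9% over libraries), above 96.1% of protein-coding genes. Itgam followed with 10.2% (8.61 to 13.0%) and Itgal with 6.75% (5.41 to 7.75%), and the libraries of these 3 genes did not overlap. Itga4 (3.97%), Cd44 (3.73%) and Itgax (3.57%) could not be ordered, since their libraries ranged from 3.10 to 4.71%, 2.81 to 4.59% and 2.65 to 4.36%. They stood near the median of 3.23% over all genes. Cd34 (1.69%, 0 to 3.32%) and Itgb1 (1.17%, 0 to 2.49%) overlapped each other, Cd34 also overlapped the 3 genes above, and Selplg was at 0%. The partners of one receptor thus differed in share, with Itgb2 above Itgam, Itgax and Itgal and Itgb1 below Itga4 in every library. Itgb2 and Itgam were not far apart in KO 2, at 15.4 and 13.0%.

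**Figure D3:**
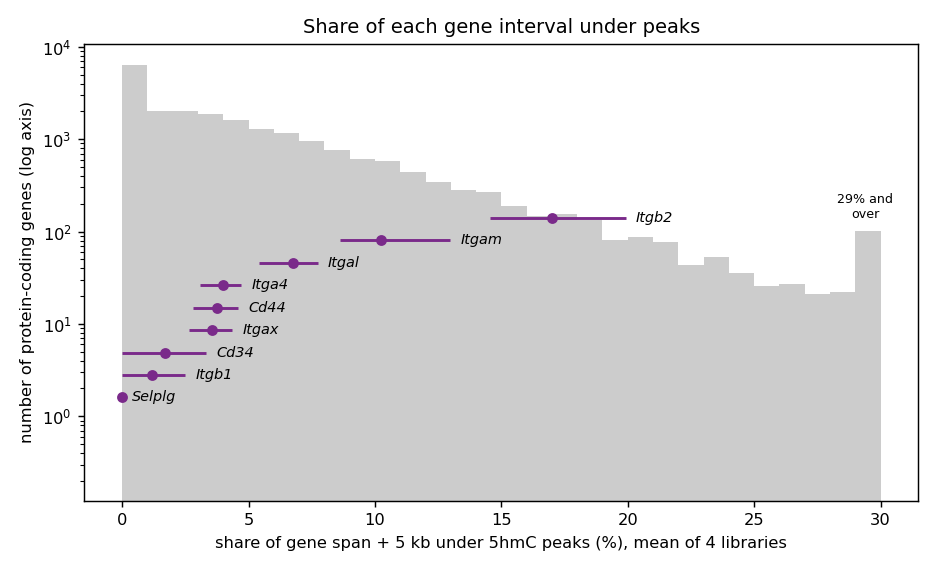
Share (%) of the gene span with 5 kb at both ends that lies under peaks: grey bars count all protein-coding genes on a log axis (last bar, 29% and over), and purple points with lines give the mean and range over 4 libraries of each adhesion receptor, with heights chosen for legibility. Itgb2 at 17.0% and Itgam at 10.2% lie to the right, and Selplg at 0%.

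Between KO and flox cells none of the 9 genes passed the test for called length. Limma was fitted to the 14162 genes with enough called length, 8 of the 9 among them, and called 0.0% of all genes (0 genes) at an adjusted p under 0.05. At an unadjusted p under 0.05 it found 6.14% of all genes and 0 of the 8. Of the 8 genes, 5 were lower and 3 higher in KO by log2 difference, with a median of -0.05, against -0.04 over all genes tested. Itgb1 counts as lower on this scale, although its mean called length was 720 bp in KO against 637.5 bp in flox. Both KO libraries lay above both flox libraries at 1 gene (Itgam), where 14.6% of all tested genes do so. They lay below at 1 (Itgb2), where 20.7% do so. For these 2 genes the two-sided exact permutation test gave p = 0.33, the smallest value that 2 against 2 libraries allow.

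**Figure D4:**
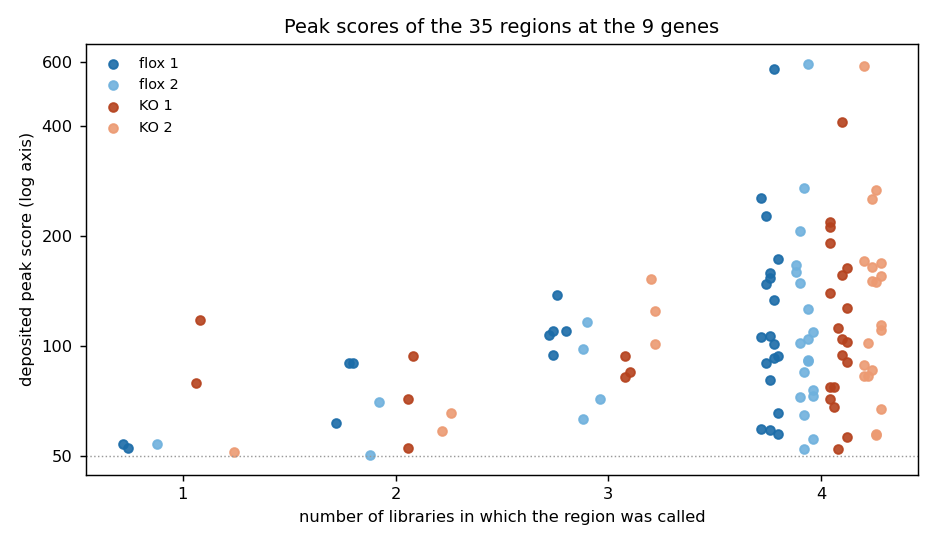
Deposited peak score (log axis) of each region at the 9 genes in each library that called it, against the number of libraries in which the region was called; the dotted line marks the lowest score in the lists, 50. Scores above 200 occur only at regions called in all 4 libraries, and 5 of the 6 regions of 1 library lie below 100.

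Scores were lower at regions called in 1 or 2 libraries, but not at those called in 3. The 19 regions of all libraries had scores from 52.30 to 592.37 (median 105.43) and a median width of 1262 bp. The 5 regions of 3 libraries had scores from 63.29 to 152.68, with nearly the same median (101.49). The 5 regions called in 2 libraries had scores of 50.33 to 93.73, and the 6 of 1 library 51.50 to 117.65 (median 53.935). The 4 flox-only and KO-only regions, at Itgb1, Itgb2 and Itgam, had scores from 50.33 to 93.73, and none was left among peaks with a score of at least 100. With that minimum, 5 of 21 regions were called in all libraries: those at the start and 20.2 kb inside Itgam, the start of Cd44 and the region next to it, and the one beyond Itga4 that lies in Cerkl. The share over all regions at genes was not computed with that minimum.

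Further genes, chosen as related to adhesion, were taken from 4 lists, and none of their members passed the test over all genes. The lists were chosen with earlier results of these data known, so their counts only describe them. The genes named are those with the smallest limma p in each direction, and need not be typical of their list. Other integrin subunits were divided, with 11 of 19 tested genes lower in KO and 8 higher (median log2 difference -0.06). Itga9, an α subunit paired with β1, had 34825 and 35650 bp in flox against 29913 and 23983 bp in KO (-0.38, SE 0.13, limma adjusted p = 0.773). Itgav, the vitronectin receptor subunit, had 3174 and 3351 bp in flox against 4984 and 4586 bp in KO (0.50, SE 0.19, adjusted p = 0.797 in limma). Proteins that activate integrins or tie them to actin were lower in 11 of 14 tested genes (median -0.25). Rasgrp2, the exchange factor that activates Rap1, differed by -0.62 (SE 0.30), and Tln2, a talin, by 0.15 (SE 0.10).

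Selectins, integrin ligands and sialomucins were lower in 14 of 18 genes (median -0.18). Pecam1, an adhesion molecule of endothelium and leukocytes, differed by -0.35 (SE 0.15). Prom1, a stem cell surface protein counted in this list although it belongs to none of those classes, differed by 0.47 (SE 0.22). Enzymes that build the sugars on selectin ligands were lower in 8 of 9 tested genes (median -0.15). B4galt1, a galactosyltransferase, had 7106 and 6421 bp in flox against 4767 and 4102 bp in KO (-0.55, SE 0.18). Gcnt1, which starts the core 2 branches that PSGL-1 needs to bind selectins, went the other way, with 3509 and 3364 bp in flox against 5765 and 5825 bp in KO (0.69, SE 0.18, limma adjusted p = 0.773). Over all tested genes 54.6% were lower. Both KO values were under both flox values at 2 of 19, 5 of 14, 7 of 18 and 4 of 9 genes of the lists, in the order given, and above them at 1 gene of each list, to be read against the 20.7% and 14.6% of all genes. Nothing was tested over a list.

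**Figure D5:**
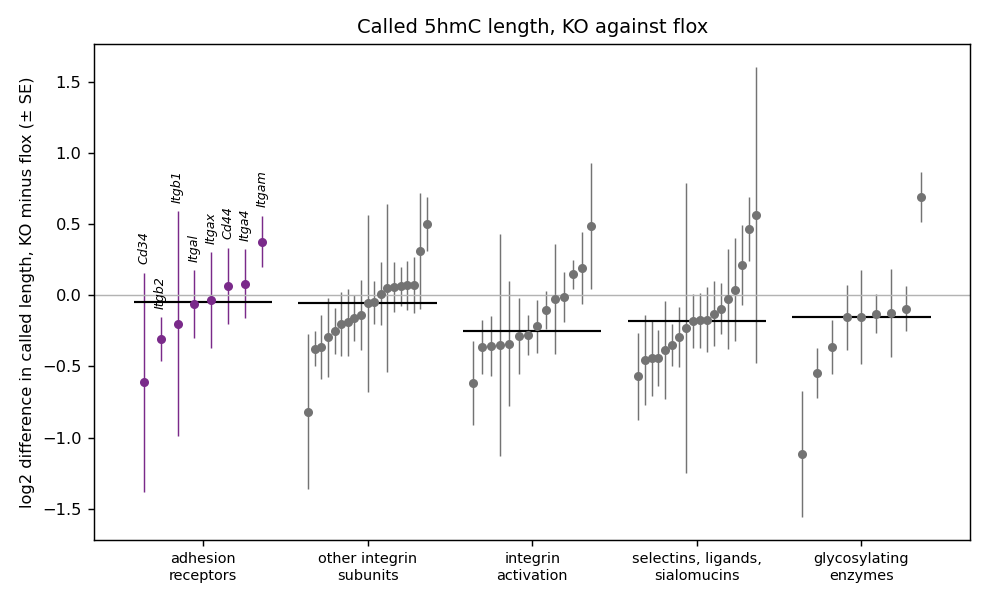
Log2 difference in called length, KO minus flox, with its SE (bars) for each tested gene of the adhesion receptors (purple) and of the 4 other lists (grey); black lines are list medians. The receptors spread from -0.61 (Cd34) to 0.38 (Itgam) around a median of -0.05.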

How the data were processed

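The 4 libraries with a peak list were compared, 2 flox and 2 KO, grouped by their titles. The IgG control and the input, the other samples of the 6 in the series, were not used here. Tools named per the submitters' processing notes are CASAVA 1.8, Bowtie and MACS 1.4, with the build GRCm38 (mm10). Their settings, the control and the handling of duplicates are not given in the sources read. The authors deposited 1 list per library, with each peak's start, end, score and p-value. The score, as deposited, equals 10 times the negative log10 of that p-value to within 0.02. Both are the authors' own values, and served here to describe, rank and filter peaks inside a list.

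Peaks overlapping by 1 bp or more were merged into regions, with positions counted from 1. Called length is the number of bases under peaks over the RefSeq span with 5 kb at both ends. It was scaled to the same total per library and tested genome-wide, over all protein-coding genes whose mean reached 500 bp, on log2(bp + 500), by limma (version 3.58.1 in R 4.3.3, with trend and robust settings and no block) and Benjamini-Hochberg adjustment. Values in bp are unscaled. Python 3.11.15, pandas 2.3.3, numpy 2.4.6, scipy 1.17.1 and matplotlib 3.10.9 were used.

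All 9 genes were named, with every flox-only and KO-only region, the best scored region of all 4 libraries and regions over promoter windows. In each of the 4 other lists, the gene with the smallest p in each direction was named. The members and lists were chosen with earlier results of these data known. Depth was unknown, and so no interval was given for lengths.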

Additional observations from a re-analysis of the deposited data

How the results depend on the processing

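No gene passed limma's threshold under any fit of called length. Counting peaks per gene gave 700 calls, all among the 3084 genes with equal peak numbers within both groups. Itgal was the only one of the 9 genes so called. Its difference was 0.49 (limma adjusted p = 5.072e-05, with 2 peaks in each flox and 3 in each KO library). Such small whole numbers showed no spread within a group, so the fit cannot weigh the difference against one, and nothing is concluded from that p. With the labels' replicate number as a replicate block there were also 0 calls, and the adjusted p of the 9 genes' tested members ranged from 0.820 (Itgam) to 0.998 (Itgax). Deviations of same-numbered libraries correlated at 0.0065 over genes, and no label says that they were paired.

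Itgam stayed positive and Itgb2 negative in all 14 alternatives. The signs of the other 6 tested genes turned in 2 to 5 alternatives each. With 20 kb at both ends they were 0.52 for Itgax, -0.12 for Itga4, 0.022 for Itgb1, -0.11 for Cd44 and 0.18 for Cd34. That wider interval of Itgax reaches into Itgam and takes in its last region (128116791 to 128118269). This region had 949 and 0 bp in flox against 1367 and 1455 bp in KO, so the 0.52 is not a value of Itgax alone. With a score of at least 100, Itgal turned to 0.79 and Itga4 to -0.31, and with the 50000 highest scored peaks to 1.14 and -0.28. Itgax, Itgb1 and Cd34 had too little called length to be tested there. By number of peaks Cd44 turned to -0.14. Leaving out each library in turn gave -0.28 to 0.21 for Itgax, -0.28 to 0.15 for Itgal, -0.16 to 0.33 for Itga4, -1.18 to 0.78 for Itgb1, -0.23 to 0.36 for Cd44 and -1.25 to 0.029 for Cd34. In those fits the lone library is assumed to vary like the others.

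Regions were formed anew under each setting, and the main setting gave 35. With a score of at least 100 there were 21 (5 in all 4 libraries, 1 flox-only, 0 KO-only). With the 50000 highest scored peaks there were 20 (4, 0 and 1), the KO-only one at Itgal. With 20 kb at both ends there were 66 (31 in all libraries, 5 flox-only). KO-only regions numbered 1 over gene bodies alone and 1 when peaks within 500 bp were merged. Leaving out a library gave 3 to 4 flox-only and 2 to 4 KO-only regions, since fewer libraries must share a call. The number of reads was unknown, and peaks near the lowest score limit what these lists can show.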
